A study of Mus musculus with 24 samples.

Results

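The core glycolytic enzymes described here are 10 genes that carry out the middle and last steps of glucose breakdown: Gpi1, Aldoa, Tpi1, Gapdh, Pgk1, Pgam1, Eno1, Pkm, Ldha and Ldhb. They were listed by name and found by matching the transcript identifiers of the count tables to gene symbols in a GRCm38 annotation and summing the reads of each gene. All 10 had reads in the C2C12 libraries, among 15167 genes with reads there, and 9 had reads in the NSC34 libraries, among 7500 genes. Ldhb was the gene with no NSC34 read.

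Glycolysis splits glucose into pyruvate in the cytosol and yields ATP without oxygen. Phosphoglucose isomerase, aldolase and triosephosphate isomerase turn the 6-carbon sugar phosphate into 3-carbon ones. Glyceraldehyde-3-phosphate dehydrogenase, phosphoglycerate kinase, phosphoglycerate mutase, enolase and pyruvate kinase then carry these to pyruvate, and lactate dehydrogenase turns pyruvate into lactate and regenerates NAD+. Muscle has its own isoenzymes for several steps, and pyruvate kinase exists as the M1 and M2 forms, made from the same gene by choosing one of a pair of mutually exclusive exons. M1 is the form of mature muscle and brain, and M2 that of proliferating cells.

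The study grew C2C12, a mouse myoblast line that can form muscle cells in culture, and NSC34, a mouse motor-neuron-like hybrid line, each labelled wild type (WT). Each line was taken either without co-culture (control) or after co-culture with the other line, which lasted 3 days per the series' design, with 6 libraries in each of the 4 groups. Total RNA was extracted with Trizol and read on a Nanopore MinION. How each line was separated from the other before extraction is not stated, nor whether libraries came from separate cultures, so that p-values measure the spread between these libraries, which may be technical.

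C2C12 libraries held 121154 to 658075 reads. NSC34 libraries held 88 to 4624 reads in controls and 2807 to 30314 in co-culture, so depth moved with the condition in that line and its part in the results on NSC34 was not tested beyond the values given. All 12 muscle markers had reads in C2C12, among them Myog (8981 reads) and Acta1 (10858 reads), genes of differentiating muscle. In NSC34, 9 of the 12 muscle markers had no read, Acta1, Myog, Des and Ckm among them, and 24 muscle marker reads were counted in all, 20 of them of Chrna1. Among the 14 neuron markers, Tubb3 had 26 NSC34 reads (190 in C2C12), Prph 25 (1), Snap25 7 (2), Gap43 7 (75) and Isl1 3 (0). All C2C12 libraries together held 3309635 reads and all NSC34 libraries 70865. Other neuron markers were near or at 0 there: Stmn2 (369 reads in C2C12), Map2, Nefm, Mnx1, Slc18a3 and Slc5a7 had 0 reads, Chat and Syp 1 each and Nefl 2. The name NSC34 is thus that of the labels, and part of the neuron markers was not detected at this depth.

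The alternative exons of Pkm, the gene of pyruvate kinase M, are shown because the 2 transcript forms that the counts separate differ in them, apart from the ends of the transcripts. In GENCODE M21 (GRCm38, + strand) Pkm-202 holds the M1-type exon at chr9:59675029-59675195, and Pkm-201 holds the M2-type exon at chr9:59675568-59675734. Each is exon 9 of its transcript, lies in the coding sequence and is 167 bases long. They were the same at 103 of 167 positions (61.7%) and differed at 64, which are in capitals. Counted from the exon's last base, 644 bases of Pkm-202 and 830 of Pkm-201 lie after it.
Pkm M1-type exon: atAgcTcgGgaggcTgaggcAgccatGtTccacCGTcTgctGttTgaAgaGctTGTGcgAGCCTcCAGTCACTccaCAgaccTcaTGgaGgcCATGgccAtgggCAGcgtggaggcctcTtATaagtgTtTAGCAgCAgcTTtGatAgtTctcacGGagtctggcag
Pkm M2-type exon: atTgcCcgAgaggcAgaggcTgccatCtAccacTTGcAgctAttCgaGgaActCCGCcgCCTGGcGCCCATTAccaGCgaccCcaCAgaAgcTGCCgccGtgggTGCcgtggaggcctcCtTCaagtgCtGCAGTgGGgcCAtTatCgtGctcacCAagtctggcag

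All 9 core enzymes with enough reads for a test had higher levels in co-cultured than in control C2C12 cells, with log2 ratios of co-culture to control between 0.28 and 0.64, and Tpi1 and Gapdh passed the threshold of an adjusted p under 0.05. Together the 10 genes took 0.824 ± 0.0842% of the reads in C2C12 controls and 1.06 ± 0.0873% in co-culture (SD, n = 6). The control libraries lay between 0.671% and 0.921%, and the co-cultured ones between 0.979% and 1.19%, so that all 6 co-cultured libraries were above all 6 controls. Of the control libraries, the lowest was replicate 1 and the highest replicate 2, the most deeply read one. The sum is mostly Gapdh, which held 53.6% of the member reads in C2C12 controls and 52.3% in co-culture. Pkm held 14.9% and 15.8% of them. In bulk RNA a change in the number of cells of a kind and a change in RNA per cell cannot be told apart.

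**Figure D1:**
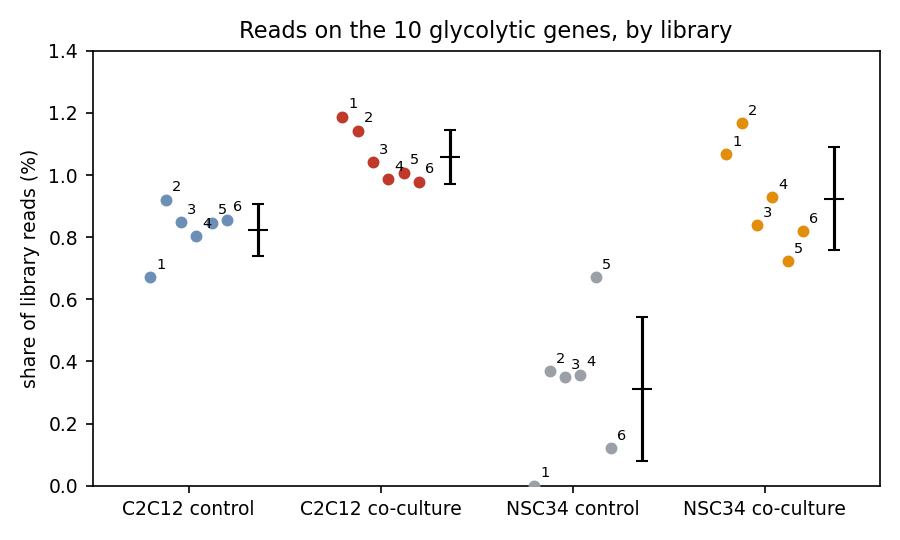
Share of each library's reads (%) that fell on the 10 glycolytic genes, by group, 1 point per library with its replicate number. The black marks are the group mean and SD (n = 6). Co-cultured C2C12 libraries lie between 0.979% and 1.19%, above every C2C12 control, and NSC34 controls reach from 0% to 0.670%.

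Gpi1, phosphoglucose isomerase, which makes fructose-6-phosphate, is on chromosome 7, 34201330 to 34230336. Its level in C2C12 controls ranged from 135 to 204 CPM (counts per 1000000 reads of the library), with a median of 169, and in co-culture from 165 to 296 with a median of 211. The groups overlapped, and the log2 ratio was 0.41 (± 0.149 SE, adjusted p in edgeR 0.182). Aldoa, the aldolase of muscle and most other tissues, is on chromosome 7, 126795234 to 126800751. Its C2C12 controls ranged from 580 to 830 CPM (median 758) and its co-cultured libraries from 697 to 1065 CPM (median 873). These ranges also overlapped, with a log2 ratio of 0.28 (± 0.101 SE, adjusted p in edgeR 0.172).

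Tpi1, triosephosphate isomerase, which interconverts the products of aldolase, had the largest difference of the 9 (chromosome 6, 124810586 to 124814296). C2C12 controls ranged from 173 to 306 CPM with a median of 262, and co-cultured libraries from 337 to 502 CPM with a median of 388. All 6 co-cultured libraries were above all 6 controls. The log2 ratio was 0.64 (± 0.125 SE, adjusted p in edgeR 0.0131), and Tpi1 passed when any 1 library was left out (edgeR adjusted p at most 0.0484). Over all 2569 genes tested in C2C12, 1.95% passed the threshold in either direction, 0.895% as higher in co-culture (23 genes) and 1.05% as lower (27 genes). With another scaling, relative log expression, those counts were 23 higher and 16 lower.

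Gapdh, glyceraldehyde-3-phosphate dehydrogenase, the step that makes NADH, was the most abundant member in reads (chromosome 6, 125161715 to 125166467). Its C2C12 controls ranged from 3527 to 5098 CPM with a median of 4348, and its co-cultured libraries from 5053 to 6432 CPM with a median of 5416. The highest control, replicate 2, lay above the lowest co-cultured library, replicate 5, and the other controls lay below all co-cultured libraries. Gapdh rose by 0.35 on the log2 scale (± 0.0768 SE, adjusted p in edgeR 0.0263). It did not pass without control 1 (adjusted p in edgeR 0.0567), control 3 (0.0703), co-culture 1 (0.0577) or co-culture 2 (0.0820), where its log2 ratio was between 0.31 and 0.34.

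Gapdh reads are hard to tell from those of its copies. Of 173 annotated copies that match a Gapdh transcript over at least 500 bases at 90% identity or more, 9 had C2C12 reads, 5394 in all against 17157 on Gapdh itself, or 23.9% of the sum. Nearly all were on the pseudogene Gm7336 (5205 reads), whose transcript is 99.8% identical to Gapdh over 1232 bases, and how the authors' counting divided such reads was not tested. Gm7336 had a log2 ratio of 0.28 (± 0.0867 SE, adjusted p in edgeR 0.0986). With the copies added to it, Gapdh had a log2 ratio of 0.34 (adjusted p in edgeR 0.0189).

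Pgk1, phosphoglycerate kinase, makes the first ATP of the pathway and is on chromosome X, 106187100 to 106203699. C2C12 controls ranged from 178 to 332 CPM (median 233) and co-cultured libraries from 302 to 342 CPM (median 319). A single control, replicate 6, reached into the co-culture range, and the log2 ratio was 0.38 (± 0.124 SE, adjusted p in edgeR 0.124; 0.0418 without that library). Pgam1, phosphoglycerate mutase of brain and most other tissues, is on chromosome 19, 41911923 to 41918660. It ranged from 117 to 214 CPM in controls (median 139) and from 106 to 268 CPM in co-culture (median 228). Its lowest co-cultured library, replicate 4, lay below all controls, and its log2 ratio of 0.47 did not pass (± 0.184 SE, adjusted p in edgeR 0.211).

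Eno1, the ubiquitous enolase, which makes phosphoenolpyruvate, is on chromosome 4, 150236721 to 150248879. C2C12 controls ranged from 358 to 705 CPM with a median of 522, and co-cultured libraries from 561 to 826 CPM with a median of 705. The groups overlapped, and the log2 ratio was 0.33 (± 0.125 SE, adjusted p in edgeR 0.206). Its near-copy Eno1b, 99.5% identical over 1736 bases, held 487 C2C12 reads against 2207 on Eno1, so that the division between the pair is uncertain.

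Pkm, pyruvate kinase M, which makes pyruvate and ATP, is on chromosome 9, 59656368 to 59679375. C2C12 controls ranged from 1105 to 1581 CPM with a median of 1407, and co-cultured libraries from 1384 to 1833 CPM with a median of 1729. Co-cultured replicates 3 and 6 lay below the highest control, replicate 5, and the others above it, and the log2 ratio was 0.32 (± 0.0968 SE, adjusted p in edgeR 0.0930). It passed with DESeq2 (adjusted p = 0.0490) and without a filter on low counts (adjusted p in edgeR 0.0183).

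Ldha, the muscle-type subunit of lactate dehydrogenase, is on chromosome 7, 46841475 to 46855627. C2C12 controls ranged from 286 to 533 CPM with a median of 502, and co-cultured libraries from 569 to 701 CPM with a median of 610. All 6 co-cultured libraries were above all 6 controls. The log2 ratio was 0.45 (SE 0.119), and the edgeR adjusted p of 0.0500119 lay just over the threshold. It passed with DESeq2 (adjusted p = 0.0132), with limma-voom (adjusted p = 0.0494) and with a robust dispersion fit in edgeR (adjusted p = 0.0331), and over all alternatives and single-library omissions the adjusted p lay between 0.00303 and 0.124, so that its call rests on the settings. Ldhb, the heart-type subunit (chromosome 6, 142490249 to 142507957), had 9 reads in C2C12 controls and 11 in co-culture, between 0 and 4 per library, and was under the filter on low counts.

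**Figure D2:**
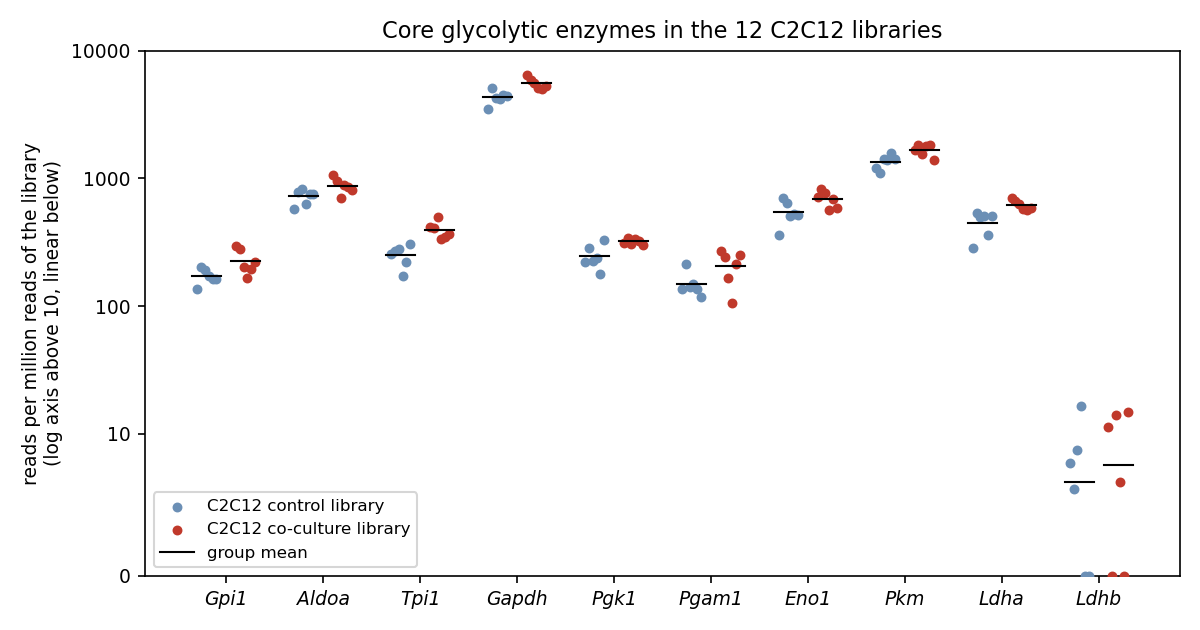
Level of each core glycolytic enzyme in the 12 C2C12 libraries, in CPM, on an axis that is logarithmic above 10 and linear below. Points are libraries and black lines group means. Tpi1 and Ldha are the genes whose co-cultured libraries all lie above the controls, and Ldhb stays below 17 in every library.

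Of the 10 members, 9 passed the filter, 2 passed the test (Tpi1 and Gapdh) and 2 had groups that did not overlap (Tpi1 and Ldha), where 1.05% of all tested genes had groups apart with co-culture higher. The median log2 ratio of the 9 was 0.38, against 0.0028 over all 2569 tested genes, of which 50.5% were above 0. All 9 were at an unadjusted p under 0.05 in edgeR (largest 0.0178), as were 14.8% of all tested genes. In each of the 24 alternative settings and single-library omissions all 9 stayed above 0, and 1 to 4 of them passed. Of the controls, replicate 1 was the lowest in 5 of the 9 members and replicate 2 the highest in 5, and co-culture 1 the highest co-cultured library in 5.

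Muscle markers moved with the same split of libraries. The 12 markers together took 1.07 ± 0.105% of reads in C2C12 controls (0.916% to 1.20%) and 1.28 ± 0.0410% in co-culture (1.21% to 1.34%; SD, n = 6), with no overlap and with none of the 12 at 0 in either group. Their part in the higher glycolytic levels was not tested. The 14 neuron markers took 0.0178% to 0.0239% of reads in C2C12 controls and 0.0179% to 0.0214% in co-culture. Prph, with 25 reads in NSC34, had 0 reads in C2C12 controls and 1 in co-cultured C2C12.

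The 5 tested genes whose log2 levels over the 12 C2C12 libraries were most like the mean of the tested members were Tnni2 (Pearson r 0.958, Spearman rho 0.958), Rhoc (r 0.937, rho 0.902), Gpx4 (r 0.911, rho 0.923), Fam162a (r 0.881, rho 0.888) and Atp2a1 (r 0.878, rho 0.874). Tnni2 encodes fast skeletal troponin I and Atp2a1 the calcium pump of the fast muscle sarcoplasmic reticulum. Rhoc is a small GTPase and Gpx4 an enzyme that removes lipid peroxides. The correlations describe 12 libraries that share their groups and depths. Tnni2 and Atp2a1 had no NSC34 read, while Gpx4 had 51, Fam162a 30 and Rhoc 9.

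The other genes of the pathway were taken from lists by role. Of 21 other glycolytic enzymes and isoenzymes 14 had C2C12 reads and 4 were tested, of which 1 rose and 0 fell. That gene was Pgam2, the muscle phosphoglycerate mutase, which ranged from 63.6 to 131 CPM in C2C12 controls (median 114) and from 148 to 209 CPM in co-culture (median 176). Its groups did not overlap, and its log2 ratio was 0.67 (± 0.157 SE, adjusted p in edgeR 0.0345). Pfkm, the muscle phosphofructokinase, had a log2 ratio of 0.47 (adjusted p in edgeR 0.372), Hk2, a hexokinase of muscle, one of 0.32 (0.411), and Eno3, the muscle enolase, one of 0.14 (0.651). The 4 had a median of 0.39.

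Of 7 genes of glucose and lactate transport 1 was tested, Bsg, the partner protein of the lactate transporters (log2 ratio 0.27, adjusted p in edgeR 0.408). Of 18 regulatory enzymes around glycolysis 4 were tested and 0 passed. They were the pyruvate dehydrogenase subunits Pdha1 (0.30) and Pdhb (0.06) and the mitochondrial pyruvate carriers Mpc1 (0.01) and Mpc2 (0.14), with a median log2 ratio of 0.10 and unadjusted edgeR p-values between 0.177 and 0.913. Of 16 genes of the glycogen and pentose phosphate branches 5 were tested and 0 passed, with a median of 0.12. Of these, Gys1, glycogen synthase, had a log2 ratio of 0.26, while Taldo1 and Pgd of the pentose phosphate branch had 0.12 and -0.10. The unadjusted edgeR p-values of these 3 lay between 0.329 and 0.709.

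Of 10 regulators of Pkm exon choice and of transcription of the pathway 4 were tested, all of them RNA-binding proteins, and 0 rose and 1 fell. Srsf3, which is known to favour the M2-type exon, ranged from 262 to 314 CPM in C2C12 controls (median 292) and from 191 to 218 CPM in co-culture (median 216), with no overlap, as in 0.662% of tested genes with co-culture lower. It fell by 0.46 on the log2 scale (± 0.104 SE, adjusted p in edgeR 0.0322). Hnrnpa2b1 had a log2 ratio of -0.42 (adjusted p in edgeR 0.111), Hnrnpa1 one of -0.24 (0.423) and Ptbp1 one of -0.26 (0.785), all known as repressors of the M1-type exon. The median of the 4 was -0.34.

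Nearly all Pkm reads were counted on Pkm-201, the transcript with the M2-type exon, in both C2C12 groups and in co-cultured NSC34. Pkm-201 also reaches further than Pkm-202 at both ends. A read that stops short of the alternative exons does not show which of them its transcript held. How such reads were assigned was not tested, so the shares are of reads as counted. In NSC34 controls 1 of 12 reads was of the M1-type form (8.33%, exact interval 0.211% to 38.5%). Pkm-201 held 4958 and Pkm-202 44 of 5005 C2C12 reads on Pkm. The M1-type share of reads on either form was 44 of 5002 in C2C12, or 0.880% (exact Clopper-Pearson 95% interval 0.640% to 1.18%, covering counting error only). Per library it ranged from 0% to 1.79% in C2C12 controls (median 0.819%) and from 0.369% to 1.35% in co-culture (median 0.782%). The groups overlapped, with means of 0.821 ± 0.671% and 0.773 ± 0.350% (SD, n = 6; exact two-sided permutation p = 0.890, adjusted p = 0.924 over 7 shares). In NSC34, 1 of 137 reads was of the M1-type form (0.730%, interval 0.0185% to 3.9997%), and 1 of 63 (1.59%) without NSC34 co-culture 2. The transcript Pkm-201 had a log2 ratio of 0.30 in co-cultured C2C12 (± 0.0972 SE, adjusted p in edgeR 0.217).

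Aldoa-201 was the leading form of Aldoa in both lines. Its transcript starts at 126799254 on chromosome 7 (- strand), and it held 2310 of 2784 C2C12 reads (83.0%, exact interval 81.5% to 84.4%) and 98 of 101 NSC34 reads (97.0%, interval 91.6% to 99.4%; 40 of 42 without NSC34 co-culture 2). Aldoa-202, with a different coding sequence, held 10.6% of C2C12 and 2.97% of NSC34 reads. Aldoa-203 has the same coding sequence of 1092 bases as Aldoa-201 but begins with another first exon, at 126800447, and held 163 C2C12 reads (5.85%) and 0 NSC34 reads. Since 1300 bases of Aldoa-203 are shared with Aldoa-201 and 160 are not, reads that stop short of the start cannot tell them apart.

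Within C2C12 the share of Aldoa-201 ranged from 72.7% to 94.8% in controls (median 86.4%) and from 77.0% to 87.4% in co-culture (median 81.6%). The means were 85.6 ± 7.31% and 81.9 ± 3.77% (SD, n = 6; exact two-sided permutation p = 0.299, adjusted p = 0.742). Tested transcript by transcript, Aldoa-201 had a log2 ratio of 0.21 (adjusted p in edgeR 0.541) and Aldoa-202 one of 0.50 (adjusted p in edgeR 0.523), and Aldoa-203 was under the filter. Among all 2586 tested C2C12 transcripts 0.387% passed. The leading transcripts Tpi1-205 (log2 ratio 0.60, adjusted p in edgeR 0.0740), Gapdh-203 (0.35, 0.0773) and Ldha-202 (0.40, 0.183) did not pass, with the co-cultured libraries of Tpi1-205 and Ldha-202 above all controls, as in 0.696% of tested transcripts.

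**Figure D3:**
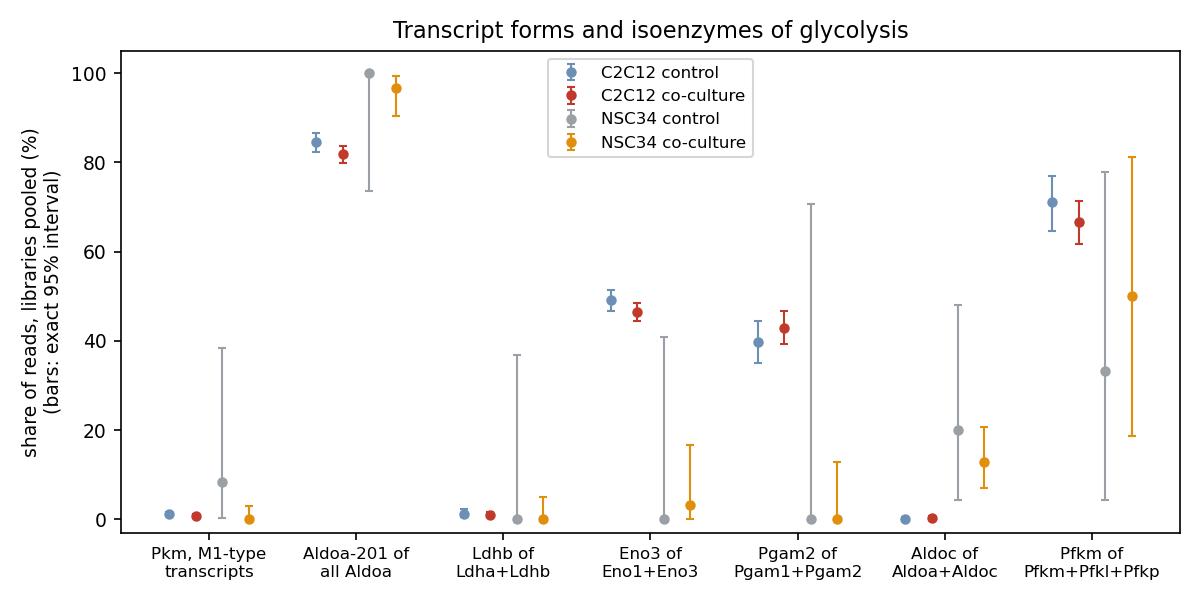
Share of reads (%) on 2 transcript forms (Pkm M1-type, Aldoa-201) and on 5 isoenzymes among the reads of their families, libraries pooled by group, with exact 95% intervals. The M1-type share is 0.746% or 1.09% in the C2C12 groups, Eno3 and Pgam2 hold 39.7% to 49.0% in C2C12 and at most 1 read in NSC34, and Aldoc is higher in NSC34.

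The muscle isoenzymes Eno3 and Pgam2 held larger shares of their families in C2C12 than in NSC34, with intervals that did not overlap. These intervals are of pooled reads and cover counting error only, not the spread between libraries. Reads on the near-copy Eno1b (487 in C2C12, 23 in NSC34) were not counted with those of Eno1. NSC34 co-culture 2 held most of the NSC34 reads on each of these families, and values without it are given beside each. Eno3 held 2003 of 4210 reads on Eno1 and Eno3 in C2C12 (47.6%, exact interval 46.1% to 49.1%) and 1 of 38 in NSC34 (2.63%, interval 0.0666% to 13.8%), or 1 of 16 without that library (6.25%, interval 0.158% to 30.2%). Pgam2 held 476 of 1140 reads on Pgam1 and Pgam2 in C2C12 (41.8%, interval 38.9% to 44.7%) and 0 of 30 in NSC34, which allows a share of up to 10%, or 0 of 8 without that library, which allows up to 37.5%, close to the C2C12 interval. Aldoc, the aldolase of brain, held 7 of 2791 reads on Aldoa and Aldoc in C2C12 (0.251%, interval 0.101% to 0.516%) and 16 of 117 in NSC34 (13.7%, interval 8.02% to 21.3%). Without that library it held 8 of 50. Ldhb held 20 of 1878 lactate dehydrogenase reads in C2C12 (1.06%, interval 0.652% to 1.64%) and 0 of 80 in NSC34, which allows up to 3.75%, or 0 of 36 without that library, which allows up to 8.33%, so that a difference was not detectable at this depth.

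None of the 5 isoenzyme shares passed between C2C12 control and co-culture. The Eno3 share was 51.2 ± 6.40% in controls and 47.4 ± 6.06% in co-culture, and the Pgam2 share 41.2 ± 7.70% and 46.7 ± 9.08% (SD, n = 6). The Pfkm share of phosphofructokinase reads was 68.9 ± 10.2% and 67.9 ± 9.71%, the Ldhb share 1.45 ± 1.32% and 1.23 ± 1.06%, and the Aldoc share 0.225 ± 0.552% and 0.271 ± 0.234%. Their adjusted p-values in the exact permutation test were between 0.742 and 0.924, and the smallest p that the splits of 6 against 6 can give is 0.00216.

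In NSC34 the summed share of the 10 genes was higher in co-culture than in controls, but the counts were small. The controls held 69 reads on them (0.311 ± 0.232%, SD, n = 6) and lay between 0% and 0.670%. Control 1 had 0 of its 88 reads on them and control 6 had 1 of its 822, so that these 2 libraries say little about the share. The co-cultured libraries held 562 reads, 354 of them in co-culture 2, and lay between 0.722% and 1.17% (0.924 ± 0.167%). All 6 co-cultured libraries were above all 6 controls. Muscle markers took 0.0200% to 0.0928% of reads in co-cultured NSC34 and 0% to 0.0491% in controls, with Acta1, Myog, Des and Ckm at 0 reads in both.

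Pkm had 12 reads in NSC34 controls and 125 in co-culture, or 757 and 2272 CPM with libraries pooled. By library it ranged from 0 to 1227 CPM in controls (median 348) and from 1069 to 2553 CPM in co-culture (median 2098), and controls 2 and 5 lay above the lowest co-cultured library, replicate 6. The ratio of pooled levels was 3.00 (exact 95% interval 1.66 to 5.97, counting error only), and 2.73 without co-culture 2. Gapdh had 22 and 175 reads, a ratio of 2.29 (interval 1.47 to 3.75), with controls between 0 and 2233 CPM (median 990) and co-cultured libraries between 1425 and 4641 CPM (median 3056). Here too the groups overlapped. The annotated copies of Gapdh held 59 NSC34 reads against 197 on Gapdh itself.

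Ldha had 8 reads in NSC34 controls and 72 in co-culture, a ratio of 2.59 (interval 1.25 to 6.24), or 2.25 without co-culture 2, where the interval included 1 (0.998 to 5.71). Aldoa had 12 and 89, a ratio of 2.14 (interval 1.17 to 4.29), or 1.61 without co-culture 2 (interval 0.798 to 3.44). The intervals of the other 5 included 1. Eno1, with 7 and 30 reads, had a ratio of 1.24, and 0.734 without co-culture 2. Its near-copy Eno1b held 23 NSC34 reads against 37 on Eno1, so that the division between the pair is uncertain here too. Gpi1 had 1 and 14 reads, Tpi1 2 and 18, Pgk1 2 and 12, and Pgam1 3 and 27. The ratio of Pgam1 was 2.59, and 1.07 without co-culture 2, which held 22 of the 27 reads. With all members summed the ratio was 2.35 (interval 1.83 to 3.06), and 1.94 without co-culture 2 (interval 1.47 to 2.58).

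Tested within NSC34 alone, 49 genes passed the filter, none of them a member, and 0 (0.00%) passed the edgeR test, with 1 gene (2.04%) at an unadjusted p under 0.05. In a fit of all 24 libraries scaled by their total reads, 1327 genes were tested and 0 (0.00%) passed for co-culture in NSC34 with edgeR or DESeq2, with 8.29% at an unadjusted p under 0.05 in edgeR. There Pkm had a log2 ratio of 1.55 (± 0.363 SE, adjusted p in edgeR 0.0596), Gapdh one of 1.17 (SE 0.307, adjusted p = 0.112), Ldha one of 1.36 (SE 0.527, adjusted p = 0.413) and Aldoa one of 1.04 (SE 0.412, adjusted p = 0.446). All 9 members were above 0, with a median of 1.30 against 0.05 over all tested genes, of which 52.2% were above 0. Scaled by TMM, the median of all tested genes moved to 0.45, and Pkm (log2 ratio 1.94, adjusted p in edgeR 0.0173) and Gapdh (1.53, adjusted p in edgeR 0.0192) passed, 1.49 and 1.08 above that median. Over all tested genes 9 passed with TMM, 9 as higher in co-culture and 0 as lower.

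Pkm also passed where any 1 C2C12 library was left out (edgeR adjusted p between 0.0214 and 0.0351), when the filter, which follows the median depth, kept 708 to 717 genes in place of 1327, and without NSC34 co-culture 6 (adjusted p = 0.0439). It did not pass when any other NSC34 library was left out (edgeR adjusted p up to 0.288, and 0.209 without co-culture 2). Gapdh passed in 0 of 24 single-library omissions. Eno1 had a log2 ratio of 0.27 and turned to -0.44 without co-culture 2 and to -0.16 without control 2.

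**Figure D4:**
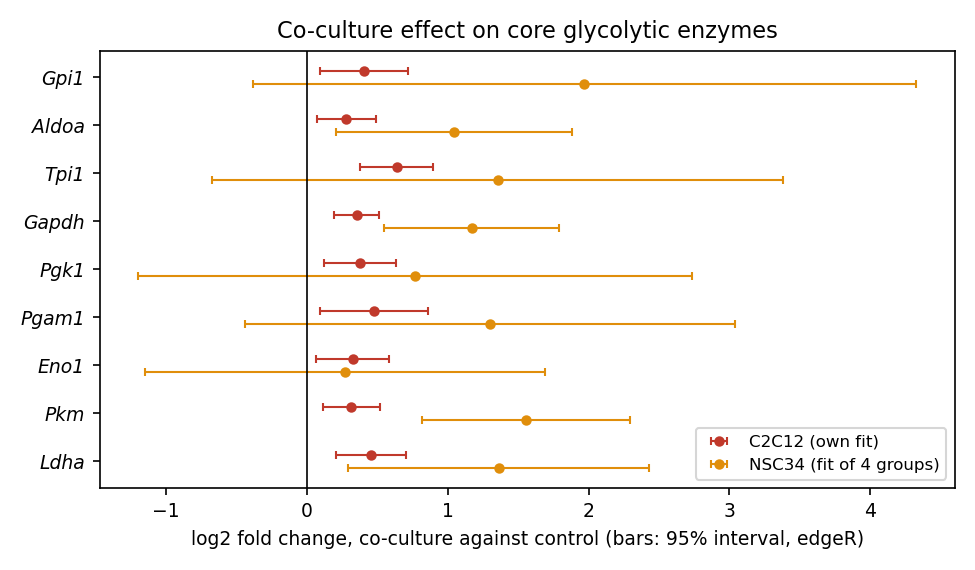
Log2 fold change of co-culture against control for the 9 tested core enzymes, with 95% intervals from edgeR, in C2C12 (fit of the 12 C2C12 libraries) and in NSC34 (fit of all 24 libraries). The C2C12 values lie between 0.28 and 0.64 with narrow intervals, and the NSC34 values between 0.27 and 1.97 with wide ones.

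Whether the lines responded unequally to co-culture was tested in the same fit, whose contrasts share libraries, and 0 of 1327 genes (0.00%) passed in edgeR or DESeq2, with 7.91% at an unadjusted p under 0.05 in edgeR. For Pkm the effect in NSC34 minus that in C2C12 was 1.24 on the log2 scale (95% interval 0.45 to 2.03, unadjusted p = 0.00294, adjusted p in edgeR 0.297), and for Gapdh it was 0.82 (interval 0.14 to 1.49, unadjusted p = 0.0186, adjusted p in edgeR 0.538). The other 7 had intervals that included 0, from -0.05 for Eno1 to 1.58 for Gpi1. In all, 8 of the 9 were above 0, as were 54.9% of the tested genes.

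Between the control groups of the lines, Gapdh was the member that passed. Its C2C12 controls ranged from 3527 to 5098 CPM and its NSC34 controls from 0 to 2233 CPM, with no overlap, as in 20.9% of tested genes with NSC34 lower. The difference, NSC34 minus C2C12, was -1.65 on the log2 scale (± 0.268 SE, adjusted p in edgeR 1.08e-05). Among all 1327 tested genes 23.3% passed, 134 (10.1%) as higher in NSC34 and 175 (13.2%) as lower. Pkm had a difference of -0.84 (± 0.358 SE, adjusted p in edgeR 0.126), and the other 7 lay between -1.48 and 0.26. TMM moved the median of all tested genes from -0.16 to -0.95 and the calls to 77 higher and 460 lower. Other settings moved the split the other way, to 247 higher and 91 lower with DESeq2, 193 and 103 without a filter, and 153 and 143 without the libraries under 1000 reads. With TMM Gapdh was at -2.45 and Pkm at -1.63 (adjusted p in edgeR 0.00106), both below the TMM median of -0.95. Pkm passed in 1 of 5 other settings, TMM, and in 1 of 24 single-library omissions.

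Between the co-cultured groups 51.0% of the tested genes passed, 330 (24.9%) as higher in NSC34 and 347 (26.1%) as lower, and with TMM 225 and 467, with the median at -0.37 in place of -0.01. Without a filter 703 were higher and 386 lower. With the filter and scaling by library totals, 4 members passed as higher in NSC34 and 1 as lower. Ldha was at 569 to 701 CPM in C2C12 (median 610) and 523 to 1798 CPM in NSC34 (median 1554), a difference of 1.05 (± 0.238 SE, adjusted p in edgeR 0.000348), and 0.68 with TMM (adjusted p = 0.0153). Gapdh was the member that passed as lower in NSC34, with a difference of -0.84 (± 0.154 SE, adjusted p in edgeR 2.73e-05). Its groups did not overlap, as in 20.3% of tested genes with NSC34 lower.

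Aldoa was higher in NSC34 by 0.81 (± 0.199 SE, adjusted p in edgeR 0.000877), Pgam1 by 1.10 (SE 0.372, adjusted p = 0.0133) and Pkm by 0.40 (SE 0.164, adjusted p = 0.0389), with overlapping ranges. In CPM the NSC34 libraries ranged from 837 to 1946 for Aldoa (median 1475), from 0 to 726 for Pgam1 (median 282) and from 1069 to 2553 for Pkm. With TMM these differences were 0.43 (adjusted p = 0.0856), 0.75 (0.0936) and 0.0029 (0.992), and none of the 3 passed. Pgam1 also failed to pass with DESeq2 (adjusted p = 0.0517). Pkm also failed with the replicate number as a block (adjusted p in edgeR 0.0652), without the libraries under 1000 reads (0.0514) and without a filter (0.201). NSC34 co-culture 2, which held 30314 of the 55007 reads of its group, decided several of these calls. Without it the edgeR adjusted p was 0.264 for Aldoa, 0.935 for Pgam1, whose difference turned to -0.10, 0.339 for Pkm and 0.0512 for Ldha, while that of Gapdh was at most 0.000347 over all single-library omissions. The Pkm call was lost as well without C2C12 co-culture 6, NSC34 control 1 and NSC34 co-cultures 1, 3 and 5 (adjusted p between 0.0519 and 0.0841).

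**Figure D5:**
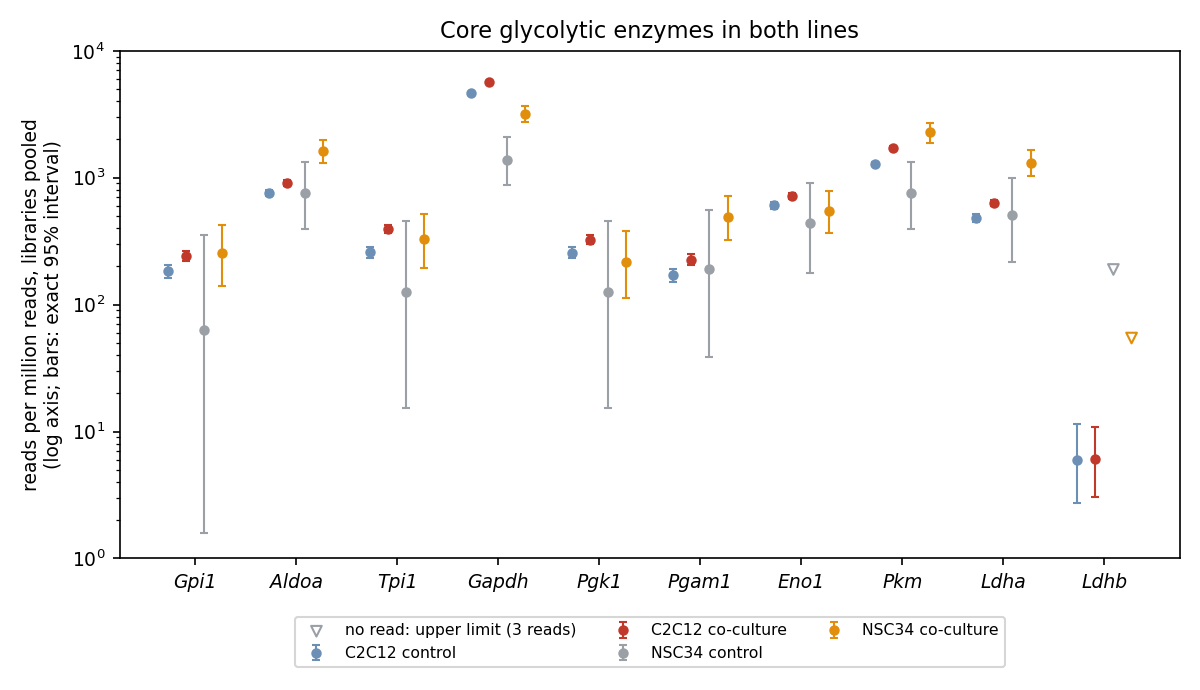
Level of the 10 core enzymes in the 4 groups, in CPM with libraries pooled, on a log axis, with exact 95% intervals of the counts. Open triangles are the upper limits for Ldhb in NSC34, where no read was counted. Gapdh is lower in both NSC34 groups than in both C2C12 groups, and the NSC34 control intervals are wide.

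The order of the members was compared per kilobase of transcript, as CPM divided by the read-weighted transcript length. Whether the deposited counts scale with length was not tested, and some ranks differ without the division. In mean CPM, Eno1 was above Ldha in C2C12 controls (543 and 449) and in C2C12 co-culture (693 and 621). Likewise Gpi1 was above Pgam1 (172 and 149 in controls, 226 and 208 in co-culture). In C2C12 controls the order was Gapdh (3075 ± 362 CPM per kb, SD, n = 6), Pkm (557 ± 70.5), Aldoa (481 ± 63.7), Ldha (283 ± 63.6), Eno1 (271 ± 59.8), Tpi1 (156 ± 29.5), Pgk1 (136 ± 29.4), Pgam1 (83.9 ± 19.0), Gpi1 (60.0 ± 8.37) and Ldhb (5.40 ± 5.10). Ldha was above Eno1 in 3 of 6 control libraries, and Pkm above Aldoa in 5 of 6, and the ranges of these neighbours overlapped, as did those of Eno1 and Tpi1, Tpi1 and Pgk1, Pgk1 and Pgam1, and Pgam1 and Gpi1. The near-copy Eno1b was not added to Eno1 in the orders given here. Over all C2C12 reads Eno1b was at 84.2 CPM per kb, Eno1 at 332 and Ldha at 353, so the rank of Eno1 beside Ldha depends on that choice.

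In C2C12 co-culture the order was the same, with Gapdh at 3929 ± 378, Pkm at 690 ± 72.8, Aldoa at 583 ± 83.9 and Ldha at 390 ± 33.4 CPM per kb. The ranges of Gapdh and Pkm were apart in both groups, as were those of Aldoa and Ldha, and of Gpi1 and Ldhb. In co-cultured NSC34 the pooled levels were 2253 CPM per kb for Gapdh, 1070 for Aldoa, 936 for Pkm and 823 for Ldha. The exact intervals of Aldoa, Pkm and Ldha overlapped each other, and those of Gapdh lay above (1932 to 2612). Pgam1 (277), Eno1 (269), Tpi1 (204), Pgk1 (120) and Gpi1 (88.3) followed, with overlapping intervals between neighbours. The pooled order leans on co-culture 2 and differs from that of the library means, in which Ldha (853 ± 327) was above Pkm (840 ± 218), and Eno1 (215 ± 152) and Tpi1 (208 ± 200.9) above Pgam1 (174 ± 135). Gapdh held 31.1% of the member reads in co-cultured NSC34 and 52.3% in co-cultured C2C12. In pooled CPM, not divided by length, co-cultured NSC34 had Pkm (2272) above Aldoa (1618) and Ldha (1309). Eno1 (545) was then above Pgam1 (491), and Gpi1 (255) above Pgk1 (218).

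The promoters of the members were read from RefSeq (GRCm38.p6) as the 300 bases around each annotated start, 16 windows for the 10 genes. They were searched on both strands for ACGTG, the core of the element bound by hypoxia-inducible factors. It was in 7 of the 16 windows (43.8%), from the 6 genes Aldoa, Gapdh, Ldha, Pgam1, Pgk1 and Pkm. The 2 Aldoa windows among the 7 overlap and hold the same match. The motif was in 19.6% of all 32851 windows and in 28.2% of those of genes tested in C2C12. By gene, it was in 6 of the 10 members, in 5886 of 27025 genes with a window and in 631 of 1988 tested in C2C12. The E-box core CACGTG, each match of which also holds the shorter motif on both strands, was in 1 of the 16 (6.25%), that of Ldha, and in 7.15% of all windows. A match is a description of letters only, since no binding was measured here. The 250 bases before the start are shown for Ldha, which had the most matches (5, in part overlapping), for Pgk1 (2) and for Tpi1, which had the largest fold change and no match, with matches in capitals. They lie at chr7:46845554-46845803 (+ strand), chrX:106186850-106187099 (+ strand) and chr6:124814159-124814408 (- strand).
Ldha promoter: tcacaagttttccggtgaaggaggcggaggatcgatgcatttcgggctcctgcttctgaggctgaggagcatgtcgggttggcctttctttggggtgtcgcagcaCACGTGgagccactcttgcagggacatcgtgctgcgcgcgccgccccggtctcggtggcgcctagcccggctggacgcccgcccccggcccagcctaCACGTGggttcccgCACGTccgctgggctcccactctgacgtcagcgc
Pgk1 promoter: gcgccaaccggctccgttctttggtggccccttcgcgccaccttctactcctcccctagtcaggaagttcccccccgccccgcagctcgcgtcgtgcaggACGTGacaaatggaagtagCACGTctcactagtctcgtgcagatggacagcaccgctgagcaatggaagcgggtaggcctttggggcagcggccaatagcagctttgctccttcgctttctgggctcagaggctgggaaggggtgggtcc
Tpi1 promoter: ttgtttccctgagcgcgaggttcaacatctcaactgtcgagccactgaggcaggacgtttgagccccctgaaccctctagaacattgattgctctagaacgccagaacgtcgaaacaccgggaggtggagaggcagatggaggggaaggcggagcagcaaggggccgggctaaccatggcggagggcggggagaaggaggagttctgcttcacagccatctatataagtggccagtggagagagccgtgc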

How the data were processed

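The authors deposited raw counts, whole numbers of Nanopore reads per Ensembl transcript, 1 table per line, not normalized; the build is GRCm38 per the submitters' processing notes. Which aligner, counting program and annotation release were used is not given in these sources. Identifiers without version were matched to GENCODE M21 (0.235% of C2C12 and 0.238% of NSC34 reads unmatched, kept as features of their own) and counts summed per gene. No column was left unmatched (0). The members and lists were chosen with earlier results of these data known.

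Separate fits for each line used edgeR 4.0.16 (R 4.3.3; genes kept by filterByExpr at a minimum count of 10, TMM scaling, quasi-likelihood test, Benjamini-Hochberg adjusted p under 0.05 over all tested genes or transcripts). A fit of all 24 libraries, scaled by library totals, compared the lines and their co-culture effects; its co-culture contrast within NSC34 was added after the NSC34 filter left no member. Standard errors are the log2 fold change divided by the root of F. Levels are CPM of all reads. Shares were compared with exact two-sided permutation tests on the shares of the libraries. Pooled reads have exact 95% intervals, with 3 reads as the limit for a count of 0. These intervals and limits cover counting error only. Copies were searched with BLAST 2.17.0. On simulated C2C12 counts the gene fit, with 2583 genes tested, called 30 of 67 genes altered by 1.5 times, 57 of 67 altered by 2 times and 52 of 66 altered by 4 times. It also made 5 false calls. The simulated counts had a common dispersion for all genes, and altered genes that the filter dropped counted as not called.

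Alternatives were RLE, library totals, TMM for the fit of both lines, DESeq2 1.42.0, limma-voom (limma 3.58.1), other filters, the replicate number as a block, a length correction (loess span 0.5), near-identical copies added, shallow libraries left out and each library left out in turn. Added after seeing the data were unmatched transcripts left out and a robust dispersion fit. Named genes are all 10 members; of the other lists every gene that passed in the C2C12 co-culture test and up to 4 others of smallest p; Pkm and Aldoa transcripts with at least 1% of the gene's reads in a line; and the 5 genes most like the members' mean. Pkm-202 and the leading transcripts of Tpi1, Gapdh and Ldha fall outside that rule and were named after their values were seen. A gene that the rule names in the other lists is not reported here.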

Additional observations from a re-analysis of the deposited data

Results flagged for a closer look

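Of 43 groups of 6 libraries examined (member levels, shares and summed shares with at least 20 reads for a level), 2 held a library far from the others by Dixon's ratio at the 95% level, and chance flags about 1 in 20 groups. Pgam1 in C2C12 control 2 was at 214 CPM, while the other controls lay between 117 and 149 CPM. The Aldoc share of Aldoa and Aldoc reads in C2C12 control 1 was 1.35%, from a single read, while the other controls were at 0.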

How the results depend on the processing

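All 9 tested members stayed above 0 in C2C12 in each of 12 other settings and 12 single-library omissions, Tpi1 passed in all 24, and the interaction test called 0 genes in every setting. Genes called in C2C12 (50) numbered 109 without a filter, 18 without controls 1 and 4, and 14 to 77 with 1 library left out. Transcripts called (10) numbered 41 with DESeq2, 126 without a filter, 2 without controls 1 and 4, and 5 to 15 with 1 library left out. Genes called in NSC34 alone (0) numbered 7 with at least 10 reads in total as the filter, and 0 to 1 with 1 library left out; in the fit of both lines (0) they numbered 9 with TMM, 5 without a filter and 0 to 4 with 1 library left out. Line differences in controls (309) numbered 537 with TMM and 186 to 310 with 1 library left out, and those in co-culture (677) numbered 1089 without a filter and 433 to 886 with 1 library left out. The causes were not tested.

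With the replicate number as a block, 28 C2C12 genes and 1 transcript were called, and Gapdh had an adjusted p of 0.0508 in edgeR. Same-numbered C2C12 libraries had deviations correlated at -0.0516 to 0.100, and 2 of 6 libraries matched best with their own number, so the numbers were not taken as pairs.

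Values turned sign as follows. With TMM the line difference in controls was -0.75 for Aldoa, -0.52 for Pgam1 and -0.65 for Ldha, that in co-culture -0.25 for Gpi1, and the interaction 0.38 for Eno1. With DESeq2 the interaction was -0.0198 for Tpi1 and -0.35 for Pgk1. With 1 library left out the line difference in controls ranged from -0.72 to 0.20 for Aldoa, -1.15 to 0.0759 for Eno1 and -0.78 to 0.56 for Ldha, and that in co-culture from -0.68 to 0.00939 for Tpi1, -0.53 to 0.24 for Gpi1 and -0.10 to 1.26 for Pgam1. The NSC34 co-culture ratio of Eno1 ranged from -0.44 to 1.07, and the interaction from -0.75 to 0.75 for Eno1, -0.0883 to 7.62 for Pgk1 and -0.36 to 1.004 for Pgam1. The co-culture difference in C2C12 ranged from -0.213 to 0.145 percentage points for the M1-type share, -0.513 to 0.112 for Ldhb, -4.74 to 1.08 for Pfkm and -0.0137 to 0.271 for Aldoc. None of these values had passed a test except those of Pgam1 in co-culture.

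Depth sets the limits in NSC34: a count of 0 allows up to 189 CPM in its pooled controls and 54.5 CPM in its pooled co-culture, against 0.906 CPM in pooled C2C12. No member passed the filter in the fit of NSC34 alone.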
